A study of Drosophila melanogaster with 30 samples.

Results

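Collier (col, listed as kn) was added to a nervous system that already carried ladybird early (lbe), and the transcripts of whole fruit fly embryos were compared at the end of embryogenesis, when the trachea has filled with air (AFT). Both genotypes carried the pan-neuronal driver elav-Gal4 (Bl#458), which is mostly active in postmitotic neurons. In lbe embryos it drove UAS-myc-lbe, and in col+lbe embryos it drove UAS-col-HA and UAS-myc-lbe together, so the driver and lbe were common to both. The comparison uses 6 of the 30 samples of the series, 3 per genotype. A gene was compared where it reached a TPM of 1 (TPM is a transcript's length-corrected share of a library, scaled to a fixed total) in either genotype, which held for 10008 of the 14077 genes in the table. The other AFT genotypes set beside them were the driver over an OregonR chromosome as control, the driver with UAS-col-HA alone, and UAS-Flag-Ap with elav-Gal4 and UAS-eya-HPC4 (ap+eya). The same 5 genotypes were also collected at embryonic stage 16. Each collection held more than 200 embryos.

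Neurons take on a final identity when a few transcription factors act together. Collier is a factor of the COE family, and in the fly nerve cord it is known as an early step in making Apterous neurons, where the LIM-homeobox factor ap, the coactivator eya and the bHLH factor dimm follow it. Dimm is known for the peptide secretory machinery of such cells, and one class of them makes the neuropeptide precursor Nplp1. In the body wall collier is also known for the identity of class IV sensory neurons, the nociceptors with the largest dendrites. Ladybird early is a homeobox factor of the NK cluster, best known in muscle and heart.

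The deposited table holds 1 TPM value per genotype and stage, taken here as the authors' mean over the 3 samples, so no difference below has a replicate check, a test, an SD or a p-value. "Higher" and "lower" describe these values only. Per the labels each library gave 30 to 50 M reads, in pairs of 150 bp at AFT and singly at 50 bp at stage 16, and the depth behind a single TPM value is unknown. RNA came from whole embryos, so a change in the number of cells of a type and a change in RNA per cell cannot be told apart. A transgene and the resident gene share their reads. The eye pigment gene w stood at 3.15 TPM in lbe and 5.13 in col+lbe, next to 10.9 in control, 2.96 in ap+eya and 2.33 in col, and lay within 2-fold between lbe and col+lbe.

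Differences are given as log2(TPM + 1) in col+lbe minus lbe, and a gene is called apart at 2-fold, a difference of 1 or more on that scale. By this rule 280 genes, 2.8% of those compared, were higher in col+lbe, and 112 genes, 1.12%, were lower. The smallest difference called was 1.003 and the largest not called was 0.994. Over all genes compared the median difference was 0.21, with the 25th and 75th percentiles at -0.04 and 0.43, so an ordinary gene was already slightly higher in col+lbe. After rescaling by the median ratio of TPM, 159 genes (1.59%) were higher and 216 (2.16%) lower, which took the share of higher genes among those apart from 71.4% to 42.4%. All 112 lower genes stayed apart under that rescaling, and 159 of the 280 higher ones did.

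**Figure D1:**
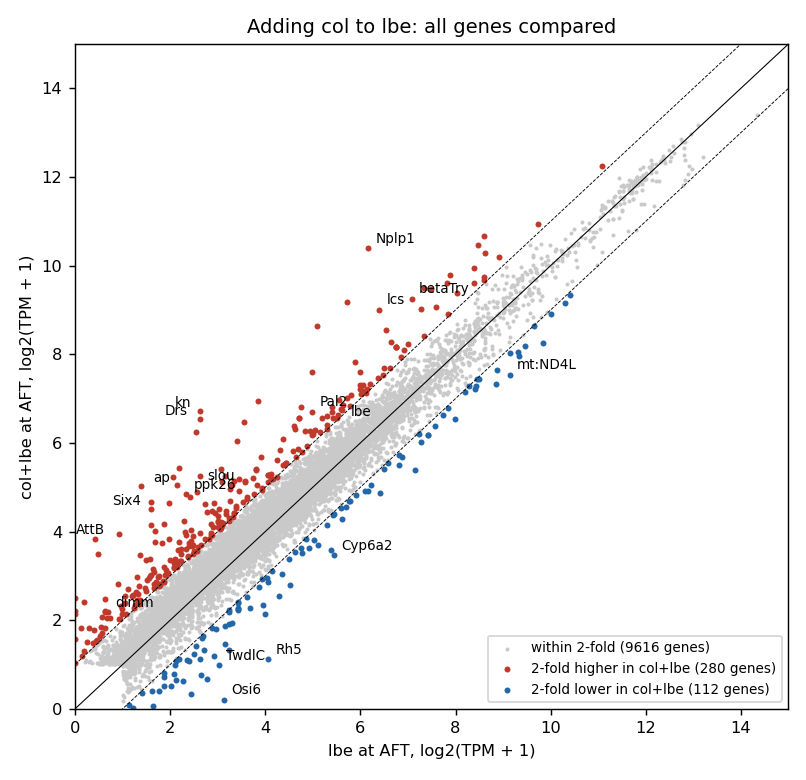
Each point is 1 gene, with log2(TPM + 1) in lbe on the x axis and in col+lbe on the y axis at AFT. The solid line marks equal values and the dashed lines 2-fold. Red marks the 280 genes higher in col+lbe and blue the 112 lower. Nplp1, kn and Drs stand farthest above the line.

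Both misexpressed genes were high where the labels place their transgenes, and both were highest with the pair. These are gene totals, in which transgene and resident gene are not separated. The level of kn was 5.15 TPM in lbe and 104.5 in col+lbe, next to 12.4 in control, 8.98 in ap+eya and 43.4 in col. Its lbe value was therefore the lowest of the 5 and its col+lbe value the highest, a difference of 4.10. The level of lbe was 48.9 TPM in lbe and 88.0 in col+lbe, and below 0.1 TPM in the other genotypes. That is 0.83, or 0.60 after the median-ratio rescaling, so lbe itself also differed between the groups compared, and its part in the differences below was not tested. At stage 16 lbe was at 61.2 TPM in lbe and 68.2 in col+lbe, a difference of 0.16.

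Genes of the Apterous neurons were higher when col was added to lbe. Nplp1 was at 70.9 TPM in lbe and 1339.7 in col+lbe, with 42.0 in control, 81.9 in col and 47.0 in ap+eya embryos. It had the largest difference of all genes compared, 4.22, a TPM ratio of 18.9. The level of ap was 3.41 TPM in lbe and 31.9 in col+lbe (2.90), and that of eya 2.96 and 23.8 TPM (2.65). In ap+eya, whose transgenes encode these factors, ap was at 29.8 and eya at 25.7 TPM, next to the col+lbe values. The peptidergic regulator dimm was at 0.607 TPM in lbe and 3.51 in col+lbe, next to 0.981 in control, 0.586 in ap+eya and 0.900 in col, a difference of 1.49. It was thus low in 4 genotypes and highest in col+lbe, while Nplp1 and dimm in ap+eya stayed near the control. These were the 4 members apart of the 14 that passed the filter from 15 Apterous neuron genes listed, all 4 higher and all still apart after rescaling. Of them dimm passed only through its col+lbe value, which the filter itself thus tied to a higher col+lbe level. The list median was 0.59, which is 0.38 above that of all genes. The other 10 lay between 0.14 and 0.77: FMRFa, the neuropeptide of another Apterous neuron, was at 2.79 TPM in lbe and 5.45 in col+lbe (0.77), and the ap cofactor Chi at 14.2 and 23.6 (0.70). The BMP pathway members tkv, sax, wit and Mad, which act upstream of FMRFa, lay between 0.14 and 0.51.

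**Figure D2:**
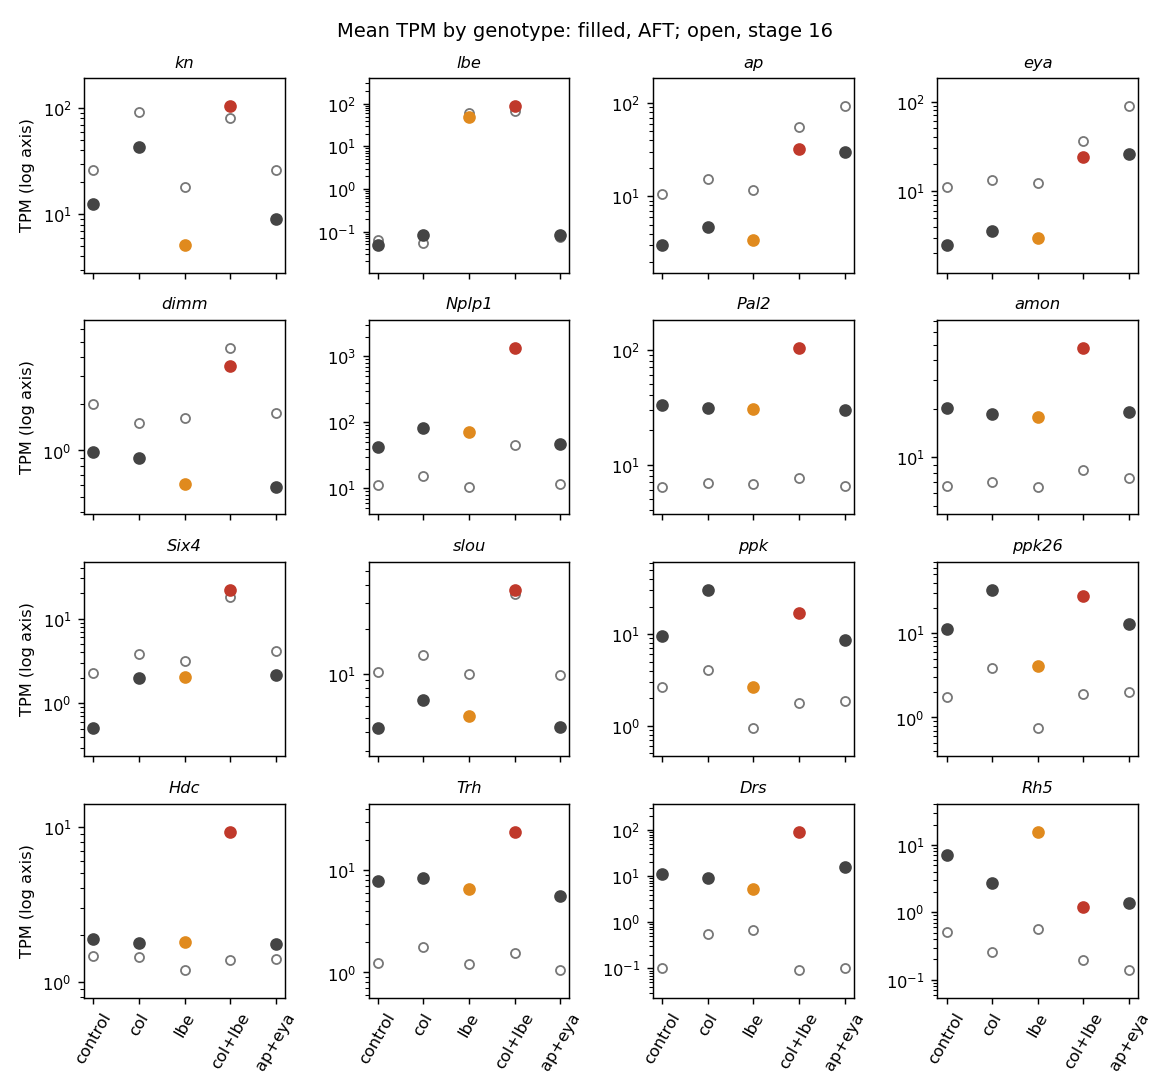
Each panel gives the TPM of 1 gene, on a log axis of its own, in the 5 genotypes, with filled points for AFT and open points for stage 16. Orange marks lbe and red col+lbe at AFT. Nplp1, dimm, Pal2, amon, Six4, slou, Hdc, Trh and Drs stand highest in col+lbe, while ppk and ppk26 stand highest in col.

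The machinery that turns precursors into active peptides was higher in col+lbe as well, by smaller amounts. Of 17 genes for peptide processing and dense core vesicles 7 were higher and none lower, and the list median was 0.70, which is 0.49 above that of all genes. The amidating lyase gene Pal2 (plus strand of 2R, 23688077 to 23690838 on BDGP6.54) stood at 30.7 TPM in lbe and 103 in col+lbe, with 32.9 in control, 30.8 in col and 29.7 in ap+eya embryos, a difference of 1.72. The convertase gene amon (3R from 26697697 to 26714159, minus strand) was between 17.9 and 20.2 TPM in the 4 other genotypes and at 47.7 in col+lbe (1.37). The carboxypeptidase gene svr was between 31.1 and 34.0 TPM elsewhere and at 72.4 in col+lbe (1.19). For Pal2, amon and svr the 4 other genotypes lay close together and col+lbe stood apart from each of them. The vesicle genes Sytbeta (1.14), Rph (1.07) and IA-2 (1.07) and the amon helper gene 7B2 (1.10) complete the set, and none of the 7 was apart in col against control, where the list median was -0.11. The hydroxylase gene Phm, the partner of the lyase in amidation, was at 60.9 TPM in lbe and 98.8 in col+lbe (0.69) and stayed within 2-fold. After median-ratio rescaling only Pal2 and amon of the 17 remained apart. Within the list svr shares its locus with the antisense RNA genes asRNA:CR44891 and asRNA:CR44892, and Pal2 overlaps CG30183, so reads may be shared.

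Other neuropeptide genes were apart in both directions. Of 50 listed 40 passed the filter, with 9 higher and 2 lower around a median of 0.29, which is 0.08 above that of all genes. Besides Nplp1, spab was at 2.22 TPM in lbe and 15.0 in col+lbe (2.32). Nplp4 was at 177 TPM in lbe and 704 in col+lbe (1.98), beside 341 in col and 60.6 in control embryos, and differed from the rest in being higher in col alone too (2.47). The myotropic hormone gene Capa was at 5.62 TPM in lbe and 23.5 in col+lbe (1.89), next to 11.3 in control, 8.80 in ap+eya and 12.4 in col. Its lbe value was the lowest of the 5 and its col+lbe value the highest, a pattern that sNPF shared, at 4.44 TPM in lbe and 15.3 in col+lbe (1.58), beside 8.97 in control embryos. CCHa2 was at 13.0 TPM in lbe and 41.5 in col+lbe (1.60), beside 16.5 in control embryos. The diuretic hormone gene Dh44 was at 4.06 TPM in lbe and 14.0 in col+lbe (1.57), where ap+eya, at 12.7, was nearly as high. Proc, for proctolin, and Tk, for tachykinin, were higher by 1.19 and 1.11 and within 2-fold after rescaling. The clock neuron peptide gene Pdf was at 11.3 TPM in lbe and 4.70 in col+lbe, with 14.3 in control, 5.58 in col and 1.77 in ap+eya embryos, a difference of -1.11. Both genotypes with the col transgene had less Pdf than their partners without it, and ap+eya had least. The insulin-like gene Ilp4 was lower by 1.16, at 6.78 and 2.48 TPM.

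Among genes that receive peptide signals, 5 of 37 were higher and none lower, from 39 listed. The list median was 0.49, which is 0.28 above that of all genes. The cholecystokinin-like receptor gene CCKLR-17D3 was at 3.28 TPM in lbe and 9.45 in col+lbe (1.29). CCHa1-R (1.21), CCKLR-17D1 (1.11), NPFR (1.01) and Dh44-R1 (1.00) were close to the threshold, and after rescaling CCKLR-17D3 alone remained apart. CCKLR-17D1, at 0.887 TPM in lbe, passed the filter only through its col+lbe value.

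Transcription factors of other lineages were higher with ap and eya. Six4, a SIX-type homeobox factor known in mesoderm, was at 2.04 TPM in lbe and 21.9 in col+lbe, next to 0.505 in control, 2.15 in ap+eya and 1.97 in col, a difference of 2.91. The NK homeobox gene slou, known for muscle founder identity, was at 5.16 TPM in lbe and 37.1 in col+lbe (2.63), with 4.25 in control, 6.67 in col and 4.35 in ap+eya embryos. Both were low in the 4 other genotypes and over 4-fold higher in col+lbe than in any of them. On BDGP6.54, Six4 lies on 3L from 20788886 to 20792777 and slou on 3R from 21548661 to 21557182, both on the minus strand. Six4 overlaps asRNA:CR46484. The homeobox gene unc-4, known in motor neurons, was at 1.76 TPM in lbe and 5.66 in col+lbe (1.27), from a list of neuronal identity factors in which 48 of 62 passed the filter, 3 were higher and none lower, and the median was 0.29. Of 18 muscle identity factors 3 were higher, Six4, slou and ap, with a median of 0.26. The contractile muscle genes beside them had a median of 0.02, with none of 22 apart and a summed level of 45560 TPM in lbe and 44568 in col+lbe. In the NK cluster, slou was higher while bap, lbl and C15 lay between -0.01 and 0.37. The 8 Hox genes had a median of 0.20 and none was apart, and the same held for 15 wing genes that depend on ap, with a median of 0.11. Of 15 ecdysone response genes Hr38, a nuclear receptor, was higher (1.14), at 0.487 TPM in lbe and 2.27 in col+lbe. Hr38 passed the filter only through its col+lbe value.

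Factors that give neuroblasts their temporal identity were higher for 3 of 14, and none was lower, next to 2.8% and 1.12% of all genes compared. The forkhead gene slp1 was at 2.94 TPM in lbe and 13.2 in col+lbe (1.85), next to 4.62 in control, 4.70 in ap+eya and 3.61 in col, with slp2 at 2.85 TPM in lbe and 7.40 in col+lbe (1.12). The zinc finger gene cas was at 3.68 TPM in lbe and 10.2 in col+lbe (1.26), with 7.52 in control, 7.55 in col and 3.94 in ap+eya embryos. Its difference thus joined a low lbe value to a modestly high col+lbe value. The list median was 0.44, which is 0.23 above that of all genes. After rescaling slp2 was not apart, and none of 22 neuroblast and cell cycle genes was apart. Among genes around collier itself, spdo, a partner of Notch signalling, was higher by 1.28, the 1 gene apart of 15. At 0.966 TPM in lbe, spdo passed the filter only through its col+lbe value. Of the E(spl) Notch targets, E(spl)m6-BFM was lower (-1.04), at 1.65 and 0.290 TPM, the 1 gene apart of 9. E(spl)m6-BFM passed only through its lbe value.

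Neurotransmitter genes were nearly all within 2-fold, with the exceptions in the monoamine group. Hdc, the histidine decarboxylase that makes histamine (plus strand of 2R, 10237988 to 10246077), stood at 1.81 TPM in lbe and 9.28 in col+lbe, next to 1.91 in control, 1.75 in ap+eya and 1.79 in col, a difference of 1.87. Trh, the tryptophan hydroxylase of serotonin synthesis, was at 6.60 TPM in lbe and 23.9 in col+lbe (1.71), with 7.78 in control, 8.43 in col and 5.65 in ap+eya embryos. Both genes lay within 2-fold over the 4 other genotypes, with col+lbe above them. The other 27 monoamine genes that passed the filter were within 2-fold, among them the vesicular monoamine transporter gene Vmat (-0.46) and SerT (0.68), both named after their values were seen. None of 15 cholinergic, 15 glutamate and 10 GABA genes was apart, with medians of 0.38, 0.20 and 0.16. The GABA transporter gene Gat was the lowest of these, at 58.5 TPM in lbe and 31.3 in col+lbe (-0.88), and passed 2-fold after rescaling (-1.11). Of the transmitter synthesis and loading genes, named after their values were seen, ChAT was at 16.2 and 22.1 TPM (0.43), VGlut at 10.7 and 15.1 (0.46) and Gad1 at 30.8 and 24.4 (-0.32).

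Genes of neurons in general and of their wiring were nearly all within 2-fold, though their list medians lay 0.13 to 0.26 above that of all genes. None of 24 pan-neuronal genes was apart, with a median of 0.47 and a range from -0.71 to 0.87. Of 59 axon guidance genes Dscam2 (1.13) and Dscam4 (1.09) were higher, the median was 0.34, and after rescaling none was apart. Among the dpr and DIP cell surface genes, DIP-eta was at 2.12 TPM in lbe and 7.85 in col+lbe (1.503) and dpr17 at 7.04 and 19.5 (1.35), the 2 genes apart of 28, around a median of 0.47. None of 15 beat and side genes was apart. In the ion channel list 1 of 29 genes, the Shaker modulator gene qvr, was higher (1.01). None of 16 glial genes was apart, with a median of 0.00.

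**Figure D3:**
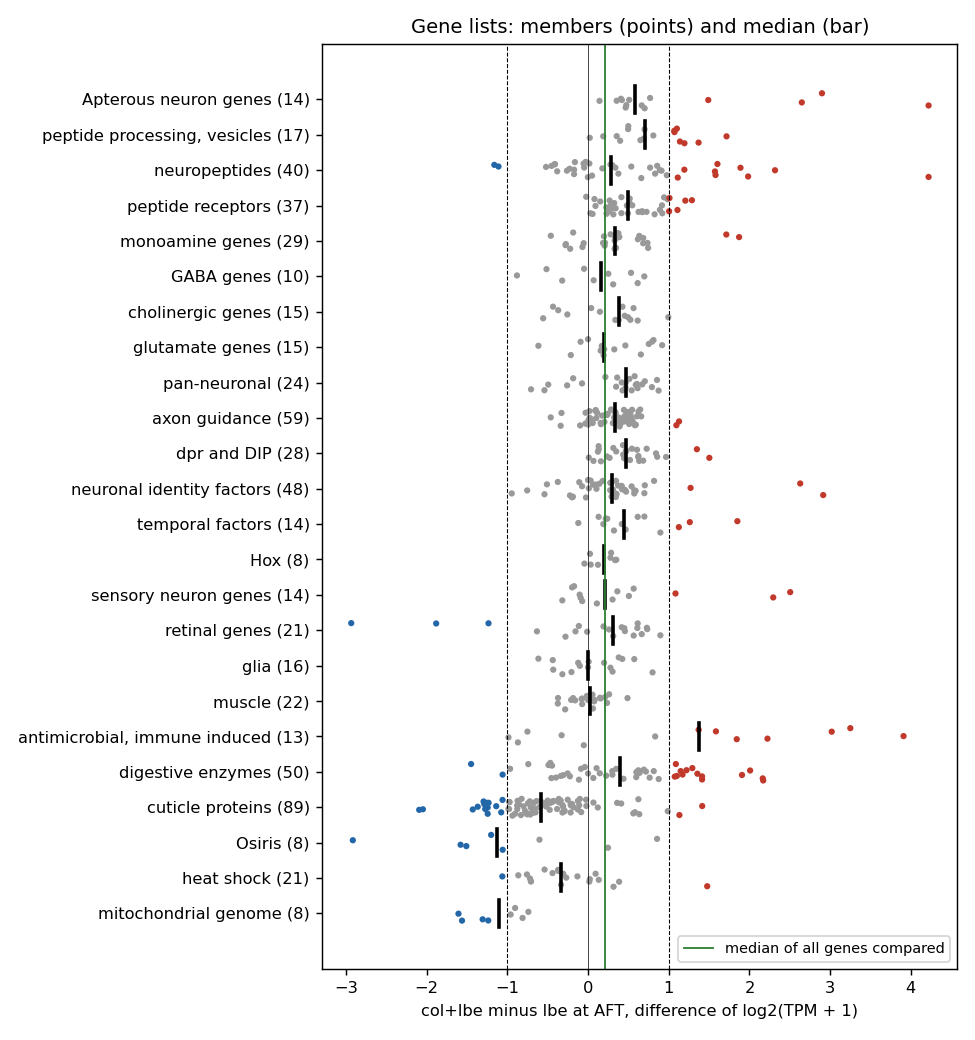
Each row is a gene list with the number of members compared in brackets. Points are members, placed by col+lbe minus lbe at AFT as a difference of log2(TPM + 1), black bars are list medians, dashed lines mark 2-fold and the green line the median of all genes, 0.21. Red and blue points are members higher and lower by 2-fold. The antimicrobial list has the highest median, and the cuticle, Osiris and mitochondrial genome lists lie to the left.

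Sensory channel genes of class IV neurons were higher in col+lbe than in lbe, with lbe the lowest of the 5 genotypes and col the highest. The sodium channel gene ppk26 was at 4.05 TPM in lbe and 27.6 in col+lbe (2.50), next to 11.3 in control, 12.7 in ap+eya and 32.8 in col. Its partner ppk was at 2.64 TPM in lbe and 16.9 in col+lbe (2.29), with 9.65 in control, 30.5 in col and 8.68 in ap+eya embryos. For both genes lbe was the lowest of the 5 by more than 2-fold, col the highest, and col+lbe lay between the control and col. The gustatory receptor gene Gr28b had the same order, at 0.356 TPM in lbe and 1.87 in col+lbe (1.08), beside 4.60 in col and 1.32 in control embryos. These were the 3 genes apart of 14 sensory genes compared from 21 listed, and the list median was 0.21, that of all genes. Gr28b passed the filter only through its col+lbe value. Adding col to the driver alone gave 1.46 for ppk26, 1.56 for ppk and 1.27 for Gr28b. The lbe minus control differences were -1.29, -1.55 and -0.78 in the same order.

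A few genes of the larval eye were lower, in a list whose median was 0.31, which is 0.10 above that of all genes. The opsin gene Rh5, which marks a class of larval photoreceptors, was at 15.7 TPM in lbe and 1.18 in col+lbe, next to 7.04 in control, 1.38 in ap+eya and 2.70 in col. It had the largest lower difference, -2.94, and its lbe value was the highest of the 5 by more than 2-fold. The arrestin gene Arr1 was at 5.22 TPM in lbe and 0.688 in col+lbe (-1.88), with 12.0 in control, 8.37 in col and 4.07 in ap+eya embryos, with col+lbe lowest by more than 2-fold. The rhodopsin chaperone gene ninaA was lower by 1.23, at 2.09 and 0.312 TPM. Of 35 retinal and photoreceptor genes listed 21 passed the filter, these 3 were lower and none higher, and 13 of the 21 were above 0. The other 18 lay between -0.63 and 0.90, among them the determination genes so (0.73) and toy (-0.63), named after their values were seen. Arr1 and ninaA passed only through their lbe value, which the filter itself thus tied to a lower col+lbe level.

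The small gene lcs was high in both genotypes with the lbe transgene. It was at 83.1 TPM in lbe and 512 in col+lbe (2.61), next to 7.51 in control, 5.24 in ap+eya and 5.58 in col. Its col+lbe value was thus above its lbe value, the other AFT genotypes were low, and it was below 0.2 TPM in all 5 genotypes at stage 16. On BDGP6.54 lcs lies on X from 21396727 to 21397316, minus strand. Npc2c, of the NPC2 lipid-binding family, was at 3.18 TPM in lbe and 36.7 in col+lbe (3.18), with 2.04 in control, 10.1 in col and 10.9 in ap+eya embryos. It overlaps asRNA:CR45205.

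Several immune effector genes were higher in col+lbe. Of 38 antimicrobial and immune-induced genes listed 13 passed the filter, and of these 7 were higher and none lower by 2-fold, with 8 above 0. The summed level of all 38 was nearly level, at 3393 TPM in lbe and 3480 in col+lbe. It was 3673 in control, 3197 in ap+eya and 2817 in col. The median of the 13 was 1.37, which is 1.16 above that of all genes, but with all 38 and no filter it was -0.09 relative to all genes, with the others under 1 TPM in both genotypes. The antifungal peptide gene Drs was at 5.21 TPM in lbe and 92.4 in col+lbe (3.91), next to 11.0 in control, 15.5 in ap+eya and 9.09 in col. IM23, named BomBc1 in the annotation, was at 3.51 TPM in lbe and 42.0 in col+lbe (3.25), with 7.48 in control, 5.00 in col and 2.69 in ap+eya embryos. The attacin genes AttB and AttA were at 0.892 and 0.136 TPM in lbe and 14.3 and 4.30 in col+lbe (3.02 and 2.22), and the drosocin gene Dro at 1.16 and 5.47 (1.58). Both attacins passed the filter only through their col+lbe value. IMPPP was at 25.3 TPM in lbe and 93.3 in col+lbe (1.84), beside 48.6 in control embryos, and shares its values with the copy CG33470. In each of these genes col+lbe was the highest of the 5 genotypes. After rescaling the same 7 were apart, and Drsl2 and Drsl4 were lower, at 23.8 and 2.08 TPM in lbe against 12.6 and 0.556. Drsl4 passed the filter only through its lbe value. In col against control 1 of the 13 was higher, AttB at 1.91. GNBP-like3, of a family that binds microbial glucans, was at 0.404 TPM in lbe and 10.2 in col+lbe (3.00), and between 0.928 and 1.18 elsewhere. GNBP-like3 too passed the filter only through its col+lbe value. Blood cell genes did not move with them as a list: of 17 compared, PPO2 was higher (1.08), at 2.14 and 5.65 TPM, the median was -0.08, and the blood cell genes Hml, NimC1 and He, named after their values were seen, lay between -0.08 and 0.03. The list of the fat body, the tissue best known for making these peptides, had none of 9 apart and a median of -0.01.

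Genes of the cuticle were lower, as a broad class. Of 126 cuticle protein genes listed 89 passed the filter, 15 were lower and 2 higher, and the median was -0.59, which is 0.80 below that of all genes. After rescaling 29 were lower and 1 higher. The summed level of all 126 listed genes was 64462.5 TPM in lbe and 38709 in col+lbe, next to 75576 in control, 59248 in ap+eya and 55898 in col, so col+lbe was the lowest of the 5. TwdlC was at 7.14 TPM in lbe and 0.969 in col+lbe (-2.05), next to 21.9 in control, 2.97 in ap+eya and 8.05 in col. Cpr65Ea was at 33.7 TPM in lbe and 11.9 in col+lbe (-1.43), with 186 in control, 24.0 in col and 14.8 in ap+eya embryos. Here the control was the genotype far from the rest, and col+lbe was the lowest. TwdlF (-2.09), TwdlY (-1.30), Lcp2 (-1.37) and Lcp1 (-1.29) were further lower members, and TwdlO (1.41) and Cpr65Ay (1.13) the 2 that were higher. TwdlC and TwdlF passed the filter only through their lbe value. Values of the copies Lcp65Ab1 and Lcp65Ab2 were identical and are uncertain singly. In the chitin and tracheal matrix list, 2 of 24 genes were higher, Cht9 (1.12) and Gasp (1.09), and TwdlD was lower (-1.06).

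Osiris genes, active when cuticle is first laid down, were far lower at AFT than at stage 16, and most of those compared were lower still in col+lbe than in lbe. Of 24 listed 8 passed the filter and 5 were lower, with a median of -1.13. All 5 passed only through their lbe value, which the filter itself thus tied to a lower col+lbe level. With all 24 and no filter the median was -0.11 relative to all genes. Osi6 was at 7.71 TPM in lbe and 0.154 in col+lbe (-2.92), next to 15.7 in control, 0.174 in ap+eya and 0.137 in col, where at stage 16 it was between 9392 and 10012 TPM in all genotypes. At AFT it was near 0 in 3 genotypes, and the control and lbe retained some. The summed level of all 24 listed genes was 24.4 TPM in lbe and 12.2 in col+lbe, next to 70.4 in control, 7.61 in ap+eya and 8.56 in col.

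Digestive enzyme genes, which come on as the gut matures, ran the other way. Of 50 compared 14 were higher and 2 lower, with a median of 0.39, and after rescaling 9 and 3. The summed level of all 56 listed genes was 9901 TPM in lbe and 16753 in col+lbe, next to 4617 in control, 11914 in ap+eya and 13020.2 in col. The trypsin gene betaTry was at 134 TPM in lbe and 607 in col+lbe (2.17), with 38.8 in control, 316 in col and 249 in ap+eya embryos. The lysozyme gene LysS (2.17) and the proteases Jon25Bi (2.01) and Jon25Bii (1.91) followed the same order of genotypes, with the control lowest and col+lbe highest. In col against control 26 of the 50 were higher. Lower were the trypsin-like gene Try29F, at 253 TPM in lbe and 91.8 in col+lbe (-1.45), beside 451 in control embryos, and LManIV (-1.06). The Lys and Jon genes are near copies, and gammaTry and deltaTry have identical values, so single members are uncertain.

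The cuticle, Osiris and gut values also separate younger from older control embryos. From stage 16 to AFT in the control, across tables that were made separately, the cuticle list had a median change of 3.03, the Osiris list -7.30 and the digestive list 4.47. Of the 10008 genes compared 19.8% were 2-fold higher at AFT than at stage 16 in the control and 22.5% were lower. Of the 280 genes higher in col+lbe, 133 (47.5%) were higher with stage and 56 (20.0%) lower. Of the 112 genes lower in col+lbe, 63 (56.2%) were higher with stage and 33 (29.5%) lower. Stage-dependent genes were thus common in both directions, and the part of embryo age in the differences was not tested. Without the cuticle, Osiris, chitin, digestive and fat body lists, 262 of the higher and 90 of the lower genes remained. Most genes apart thus lie outside these lists, so leaving the lists out is no test of embryo age.

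Transcripts of the mitochondrial genome were lower in col+lbe than in lbe. Of its 13 protein genes, a list added after values were seen, 8 passed the filter, all 8 were below 0 and 4 were apart: mt:ND4L (-1.61), mt:ATPase8 (-1.56), mt:ND6 (-1.31) and mt:ND2 (-1.24). The summed level of all 13 was 27462 TPM in lbe and 15300.1 in col+lbe, next to 15984 in control, 28256 in ap+eya and 26383 in col. The control and col+lbe therefore lay together, and the other 3 genotypes lay together above them. Since TPM is a share of a fixed total, the part of this shift in the values of other genes was not tested. mt:ND4L overlaps mt:ND4 and mt:ATPase8 overlaps mt:ATPase6.

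Some detoxification genes, such as Cyp6a2, had the order of the mitochondrial ones, but the cytochrome P450 genes by sum did not. Of 34 glutathione S-transferase genes 5 were lower and 1 higher, and of 65 cytochrome P450 genes 4 were lower and 3 higher, both lists added after values were seen. Over all genes compared 1.12% were lower and 2.8% higher. The list medians were -0.16 and 0.08. Summed over all listed, the transferases were at 2495 TPM in lbe and 2067 in col+lbe, next to 1902 in control, 2655 in ap+eya and 2585 in col. The P450 sum was 1858 in lbe and 1947 in col+lbe, next to 2007 in control, 1993 in ap+eya and 1979 in col. Cyp6a2 was at 42.5 TPM in lbe and 10.1 in col+lbe (-1.97), next to 13.6 in control, 47.3 in ap+eya and 24.9 in col. Cyp304a1, by contrast, was highest in the control at 45.3 TPM and lowest in col+lbe at 3.82 (-1.41). Of 21 heat shock genes the small heat shock gene l(2)efl was higher (1.48), at 191 and 534 TPM, and Hsp70Bbb, 1 of several near copies, was lower (-1.06). The summed level of all 26 heat shock genes listed was 4003 TPM in lbe and 3671 in col+lbe, next to 4024 in control, 6798 in col and 7178 in ap+eya. The lower gene hll was at 21.9 TPM in lbe and 5.90 in col+lbe (-1.73), with 29.7 in control, 14.3 in col and 10.4 in ap+eya embryos, and overlaps CG18095.

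Adding col to the driver alone, in samples that the main comparison does not use, gave a partly shared set. Over the same 10008 genes 185 (1.85%) were higher in col than in the control and 213 (2.13%) lower. Of the 280 genes higher with lbe present, 66 were also higher without it, which is 23.6% of the 280 and 35.7% of the 185, and 1 was lower. Of the 112 lower genes 55 were also lower without lbe, which is 49.1% of the 112 and 25.8% of the 213, and 6 were higher. Among these 6 were GstD4, GstD5, Hsp70Bbb and mt:ND4L. The shared higher genes included kn (4.10 with lbe and 1.73 without), ppk, ppk26, AttB, Nplp4 and digestive enzyme genes, and the shared lower genes included Osi6, TwdlF, Cpr65Ea, Rh5 and Pdf. In ap+eya, which has no col transgene, these lower genes were low too. Osi6 was at 0.174 TPM there and 15.7 in control, TwdlF at 0.576 and 18.3, and Cpr65Ea at 14.8 and 186. Rh5 was at 1.38 and 7.04 TPM and Pdf at 1.77 and 14.3. AttB (4.57 and 0.313), Nplp4 (264 and 60.6) and betaTry (249 and 38.8) were higher there than in control. Levels of kn, ppk and ppk26 there were within 2-fold of the control. The part of col in the overlap was not tested.

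The Apterous genes and the peptide machinery belonged to the set that was within 2-fold when col was added without lbe. Nplp1 (0.95) and Six4 (0.98) lay just under 2-fold there. The level of kn also differed, at 43.4 TPM in col and 104.5 in col+lbe, and its part in the values below was not tested. Subtracting the col difference without lbe from that with lbe gave 2.41 for ap, 2.27 for eya, 3.27 for Nplp1, 1.55 for dimm, 1.94 for Six4, 2.08 for slou, 1.81 for Pal2 and 4.16 for Drs. Of the 280 higher genes 162 had such an excess of 2-fold or more, against 613 (6.13%) of all genes compared. Of the 112 lower genes 28 had one in the lower direction, against 216 (2.16%). Over all genes compared the median was 0.21 for the col difference with lbe and -0.09 for that without. These unlike offsets enter every excess, which was not rescaled. The 280 and the 112 were chosen on the first of these 2 terms, so the counts describe them and no more. For ppk the excess was 0.73 and for ppk26 1.05. For Nplp4, betaTry and LysS it was negative, at -0.49, -0.83 and -1.63, which is to say that the col difference was larger without lbe.

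**Figure D4:**
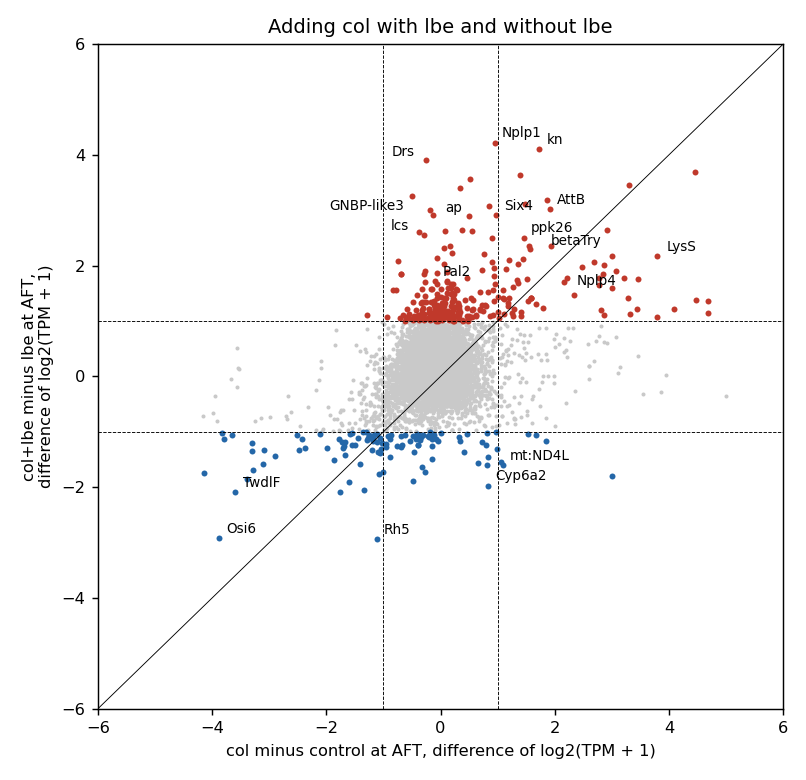
Each point is 1 of the 10008 genes, with col minus control at AFT on the x axis and col+lbe minus lbe at AFT on the y axis, both as differences of log2(TPM + 1). Dashed lines mark 2-fold, the diagonal equal differences, and red and blue points the genes higher and lower in col+lbe. Drs, ap, lcs and Pal2 lie high near an x of 0, while betaTry, LysS and Nplp4 lie to the right.

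At stage 16 few genes were higher when col was added to lbe, and most of those were higher at AFT as well. Over the same genes 22 (0.22%) were higher in col+lbe than in lbe at stage 16, and 119 (1.19%) lower. Of the 22, 14 were also among the 280 at AFT, 63.6% of the stage 16 genes and 5.00% of the AFT genes. These 14 were kn, Nplp1, ap, eya, dimm, Six4, slou, CCHa2, IM23, Gr28b, Amy-p, Oaz, CG13056 and CG15067. The last 4 of these fall outside the naming rule and are given to complete the count. Six4 was at 3.19 TPM in lbe and 17.9 in col+lbe at stage 16 (2.17), slou at 9.97 and 34.6 (1.70), ap at 11.8 and 55.9 (2.15) and CCHa2 at 4.60 and 17.6 (1.73). The factors ap, eya, Six4, slou and kn were thus already apart at the earlier stage, where the TPM of ap and eya in col+lbe was above that at AFT. Nplp1 was at 10.6 and 45.2 TPM at stage 16, so its difference of 1.99 there became 4.22.

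The peptide processing genes were different in timing. None of the 17 was apart at stage 16, where Pal2 was at 6.78 TPM in lbe and 7.56 in col+lbe (0.14) and amon at 6.57 and 8.30 (0.30). Hdc (0.13), Trh (0.21), spab (-0.10), Capa (-0.09) and slp1 (0.08) were also level at stage 16. Drs was at 0.688 TPM in lbe and 0.0910 in col+lbe there. Of the 112 lower genes 24 were lower at stage 16 too, 21.4% of the AFT genes and 20.2% of the 119. They included Pdf (-1.27 at stage 16), TwdlC (-1.80), TwdlM (-2.11) and Cpr65Ea (-1.88), and 35 cuticle genes of the 89 were lower at stage 16. The 2 stages differ in read length and layout as well as age, so sizes set across them also carry that difference.

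**Figure D5:**
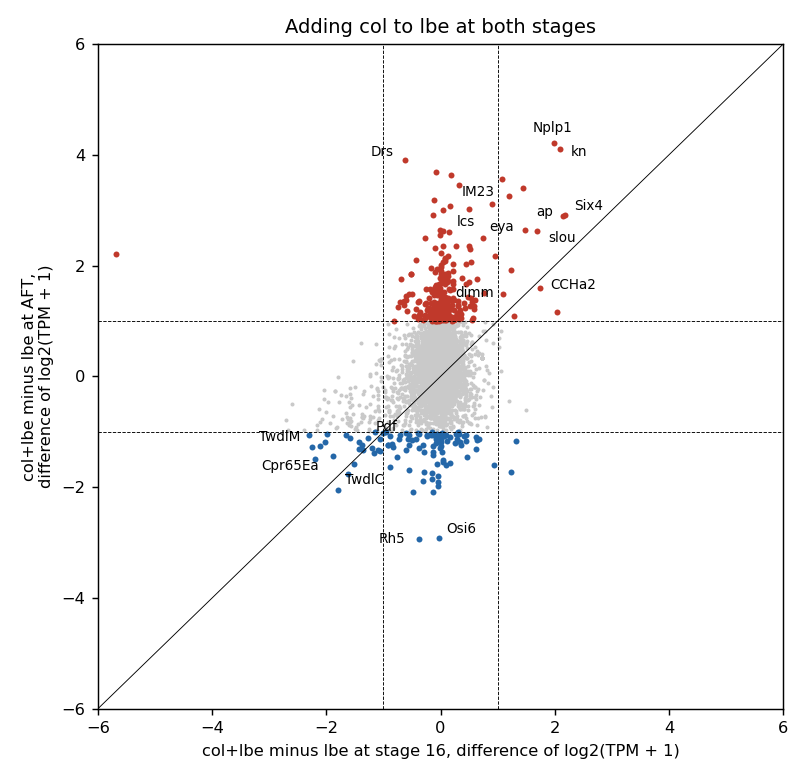
Each point is 1 gene, with col+lbe minus lbe at stage 16 on the x axis and at AFT on the y axis, both as differences of log2(TPM + 1). Dashed lines mark 2-fold and the diagonal equal differences. Nplp1, kn, Six4, ap, eya and slou lie in the upper right, and most other red points lie near an x of 0.

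Set beside all 5 AFT genotypes, 94 of the 280 higher genes had a col+lbe value 2-fold or more above each of the others, Nplp1 (4.02 above the next), Six4 (2.86), lcs (2.61), Drs (2.50) and slou (2.31) among them. For 265 of the 280 col+lbe was the highest of the 5, a count that choosing genes on a high col+lbe value favours. The lbe value was the lowest of the 5 for 131, but by 2-fold for 3, ppk, ppk26 and CG12896. Of the 112 lower genes col+lbe was the lowest for 91 and by 2-fold for 15, among them Arr1, TwdlC and Try29F, while lbe was the highest by 2-fold for Rh5 and 3 numbered genes. By level, 238 higher and 91 lower genes reached 5 TPM in lbe or col+lbe, and 43 higher and 5 lower genes were apart by 4-fold. Genes known only by number made up 128 of the 280 and 65 of the 112. By chromosome, the share of compared genes that was higher ran from 1.98% on X to 3.46% on 2R, and none of 75 genes on chromosome 4 was apart.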

How the data were processed

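RNA was sequenced from whole Drosophila melanogaster embryos. The deposited tables hold TPM made by the authors with kallisto 0.43.1 on build BDGP6, per the submitters' processing notes, 1 mean per genotype and stage. The step from transcripts to genes, and the averaging over replicates, have no description in the sources used here. TPM keeps no read depth, and its sum over transcripts is fixed. A limma fit across replicates, the plan for tables with single samples, was therefore not possible.

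Differences of log2(TPM + 1) were computed for genes with 1 TPM or more in lbe or col+lbe and counted at 2-fold. This scale understates the change of low genes. The count was tested on simulated data, with 4-fold changes planted on genes with 5 TPM or more in lbe. That test did not cover 2-fold changes, genes near 1 TPM or the spread of replicates. Named genes are, per direction, the 15 largest differences among genes with 5 TPM or more in either column and a symbol that is not a CG or CR number, beside which 14 and 16 numbered genes ranked as high. To these are added kn, lbe, Nplp1, ap, eya, dimm, w and up to 6 list members per direction. Other genes were named after their values were seen, with or without a remark beside them, among them FMRFa, Chi, tkv, sax, wit, Mad, Phm, IA-2, Dh44, Proc, Tk, bap, lbl, C15, Gat, Drsl2, Drsl4, mt:ND2, GstD4, GstD5 and TwdlM. The members and the 36 gene lists were chosen with earlier results of these data known, and 4 more lists were added later.

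Symbols were matched to BDGP6.54 for 9975 of the 10008 genes. A planned motif search in promoters was not run, as no promoter sequences were used here. In 5 gene names that a spreadsheet had turned into dates the symbol was restored. The alternatives tried were a pseudocount of 0.1 or 5, dropping the filter or raising it to 5 TPM, median-ratio and quantile rescaling, the plain TPM ratio, a 3-fold threshold and leaving out lists. Python 3.11.15, pandas 2.3.3, numpy 2.4.6 and matplotlib 3.10.9 were used.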

Additional observations from a re-analysis of the deposited data

How the results depend on the processing

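No paired analysis was possible because each table holds 1 mean per genotype, and for the same reason leaving out single replicates was not run. Every named gene that was apart kept its direction under the alternatives run. The 280 higher genes became 438 with a pseudocount of 0.1, 137 with 5, 159 after median-ratio rescaling, 183 after quantile normalisation, 479 with the plain TPM ratio and 78 at 3-fold. The 112 lower genes became 49 with a pseudocount of 5, 216 after median-ratio rescaling, 186 after quantile normalisation, 173 with the plain ratio and 18 at 3-fold. The 66 genes higher with and without lbe became 21 at 3-fold, and the 55 lower ones 20 with a pseudocount of 5, 85 with the plain ratio and 7 at 3-fold. The 94 higher genes with col+lbe 2-fold beyond all others became 51 with a pseudocount of 5 and 28 at 3-fold. The 15 lower ones became 29 with 0.1, 6 with 5, 46 after median-ratio rescaling, 38 after quantile normalisation, 34 with the plain ratio and 1 at 3-fold. The 14 genes higher at both stages became 28 with 0.1, 8 with 5, 44 with the plain ratio and 6 at 3-fold. The 24 lower at both became 44 with 0.1, 11 with 5, 51 after median-ratio rescaling, 38 after quantile normalisation, 50 with the plain ratio and 2 at 3-fold. The other 39 recomputed counts stayed within 1.5 times, including all 8 without a filter, all 8 with a filter of 5 TPM and all 8 without the cuticle, Osiris, chitin, digestive and fat body lists. Of 89 named genes 18 fell within 2-fold after median-ratio rescaling, 15 after quantile normalisation, 37 with a pseudocount of 5 and none with 0.1. Depth is unknown for TPM, so no limit from counting can be given for genes near 1 TPM.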

Other observations

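The neighbourhoods of the misexpressed genes, looked at after values were seen, held several of the genes apart. Of 33 genes compared within 120 kb of kn on 2R, 4 were higher in col+lbe than in lbe and none lower. Over all genes compared the share higher was 2.8%, and the counts near these genes were not tested against it. Dro, AttA and AttB lie side by side from 14745961 to 14750165 on BDGP6.54, 25.9, 24.4 and 22.5 kb from kn, and NaPi-T was the fourth gene (1.00). Genes between the attacins and kn, such as Rpn6 (0.25), Trs31 (0.10) and BEAF-32 (0.45), were within 2-fold. Of 31 entries within 120 kb of lbe on 3R 4 were higher, slou and 3 transcript entries of the mod(mdg4) locus. Most of the 31 are entries of that 1 locus, so they are not separate genes. The neighbour lbl, at 7.44 kb from lbe, was level (-0.01). None of 21 genes within 120 kb of Six4 was apart.

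The Bomanin genes, short immune-induced peptides, are a list added after values were seen. Of 12 listed 6 passed the filter, 4 of them only through their col+lbe value, which the filter itself thus tied to a higher col+lbe level. Of the 6, 5 were higher by 2-fold. CG15067, named BomBc2 in the annotation, was at 0.341 TPM in lbe and 13.2 in col+lbe (3.40), with 0.804 in col and 1.42 in ap+eya, and was higher at stage 16 too (1.44). CG43202 (BomT1) was listed at 0 in lbe and at 3.40 TPM in col+lbe. CG5791 (BomBc3) was at 0.2997 TPM in lbe and 1.81 in col+lbe, and its control value of 2.34 was above both.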
